A study of Columba livia with 12 samples.

Results

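miR-148a is a microRNA (miRNA) made from 1 hairpin with 2 mature arms, listed as cli-miR-148a-3p and cli-miR-148a-5p. Both arms were taken by name from a table of read counts for 1039 mature miRNA names in pigeon liver, so the members are 2 of 1039 rows. Small RNA was sequenced from livers of white king pigeons (Columba livia) aged 1 day (1d), 14 days (14d) or 28 days (28d), and from adults aged 2 years (2y), with 3 libraries per age and 1 bird per library. Ages follow the titles, whereas the descriptions of 1d replicates 2 and 3 name birds of 2 and 3 days. The first 3 ages were squabs of mixed sex and the 2y birds were parents of both sexes. The sex of each sequenced bird is not given in the sources used here and the labels name no experimental treatment. The series asks how liver miRNAs differ over development.

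An miRNA hairpin is cut into a duplex of both arms, one of which is usually kept in an Argonaute protein as the guide while the other, the passenger, is mostly degraded. The guide pairs with messenger RNAs through its seed, the bases near its 5′ end, and lowers their output. In mammals miR-148a-3p is the guide arm and is abundant in hepatocytes, the main cells of the liver. There it is known to act on the messages of the DNA methyltransferase DNMT1 in mouse and of the low-density lipoprotein receptor in mouse and human. None of these targets was measured here.

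Libraries held 3100273 to 9393075 counts, and 345 names passed the filter on low counts and were tested. Levels are counts per 1000000 (CPM) on library sizes scaled by the trimmed mean of M-values (TMM). Means carry ± SD with n = 3 birds. The TMM factors followed age (1d 1.61 to 1.96, 14d 1.30 to 1.56, 28d 0.512 to 0.953, 2y 0.568 to 0.730), so CPM at the later ages stands higher than the share of counts does. Changing from TMM to the total count moved the median log2 fold change of the 345 miRNAs by -0.31 for 14d against 1d, -1.01 for 28d against 14d, 0.04 for 2y against 28d, and -1.03 for 2y against 14d. Against 1d it moved by -1.30 for 28d and by -1.31 for 2y. The ratio of the arms within a library does not depend on this scaling.

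The guide arm, miR-148a-3p, was among the most abundant miRNAs at every age, with a low at 14d. It was the top-ranked name in each 1d library, ranked 4 to 5 at 14d, and from 28d on ranked 1 to 3. At 2y the largest mean share belonged to miR-26-5p (21.4%), and at 14d to miR-22-3p (18.8%), so miR-148a-3p did not dominate at each age, and in whole liver its cell of origin was not measured. Its level was 82452, 126004 and 102957 CPM in 1d replicates 1 to 3. At 14d it was 43396, 37371 and 49376 CPM. The 14d libraries thus lay below all others. The 28d libraries held 200766, 498335 and 347191 CPM, and the 2y libraries 253631, 246471 and 277474 CPM. All 6 later libraries lay above the 6 earlier ones on this scale, and the range at 28d enclosed that at 2y. How many of all tested miRNAs show such separations was not counted. As a share of all counts the arm held 17.7 ± 2.34% at 1d and 5.97 ± 0.393% at 14d, against 20.8 ± 4.25% at 28d and 17.3 ± 1.30% at 2y. On this scale the ranges at 1d, 28d and 2y overlapped and only 14d stood apart. The share differed over the 4 ages (exact permutation test of the F statistic over 15400 partitions of the libraries, two-sided, adjusted p = 0.00558 over 3 measures).

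The passenger arm followed another course. miR-148a-5p was at 691, 709.9 and 595 CPM in the 1d libraries and at 422, 360.3 and 275 CPM in the 14d libraries. It was lower again at 28d, with 162, 116 and 104 CPM, and lowest at 2y, with 74.8, 44.4 and 43.3 CPM. In CPM no 2 ages overlapped, and the order 1d, 14d, 28d, 2y ran downward in every library. How many of the 345 tested miRNAs separate in this way was not counted, and miR-26-3p did so too. By share of counts 28d replicate 3 (0.00532%, 95% interval 0.00454 to 0.00620) and 2y replicate 1 (0.00532%, 0.00481 to 0.00586) were level within counting error. Among all names its rank was 55 to 63 at 1d and 62 to 74 at 14d, then 88 to 104 at 28d and finally 108 to 125 at 2y. Its share of counts fell from 0.115 ± 0.0197% at 1d and 0.0490 ± 0.0115% at 14d to 0.00892 ± 0.00567% at 28d and 0.00367 ± 0.00148% in the adults (exact permutation test, adjusted p = 0.000195, which rests on the smallest p the test can give). The counts behind the arm were 165 to 5351 per library, against 211945 to 1731314 for miR-148a-3p. The exact 95% binomial interval of a library's share reached at most 16.5% of that share for the 5p arm and 0.414% for the 3p arm, covering counting error only.

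**Figure D1:**
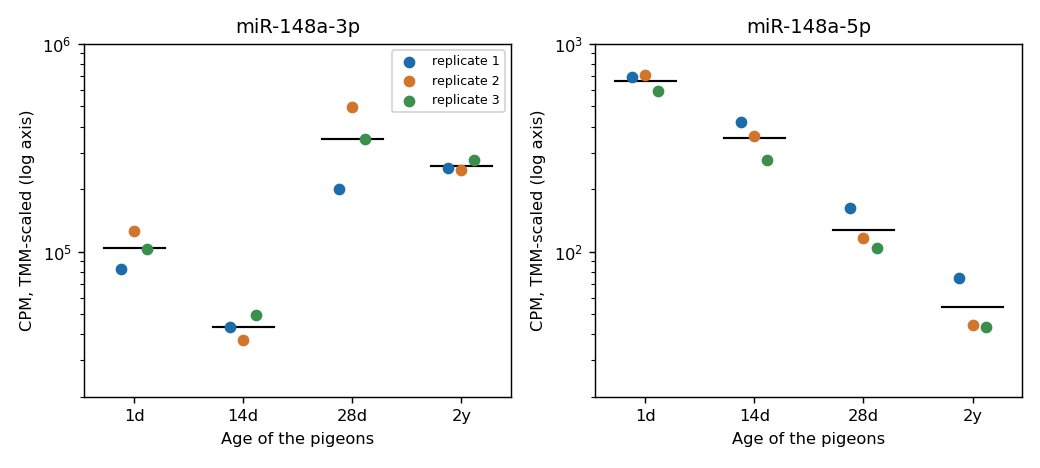
Level of miR-148a-3p (left) and miR-148a-5p (right) in each library, in CPM on TMM-scaled library sizes and a log axis, by age; points are single birds coloured by replicate number and black lines are means of 3. The 3p arm is lowest at 14d (37371 to 49376 CPM), while the 5p arm steps down at each age from 595 CPM or more at 1d to 74.8 CPM or less at 2y.

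The first comparison asked what differs between the hatchling and the 14d squab. Both arms were lower at 14d. miR-148a-3p was 2.39-fold lower (log2 fold change -1.26 ± 0.31 SE, adjusted p = 0.0143 by the edgeR quasi-likelihood test, Benjamini-Hochberg adjusted over 345 miRNAs), and miR-148a-5p 1.89-fold lower (log2 fold change -0.92 ± 0.29 SE, adjusted p = 0.0360). Both arms were thus called lower, where 31% of all tested miRNAs were called, 16.8% higher and 14.2% lower. For the 3p arm the call was lost without 1d replicate 2 (adjusted p = 0.0516) or 14d replicate 2 (adjusted p = 0.0507). That of the 5p arm ended without any single 1d library or 14d replicate 2 or 3 (adjusted p 0.0577 to 0.117), and with the total count (adjusted p = 0.0709). The descriptions of 1d replicates 2 and 3 name birds of 2 and 3 days. With replicate 1 alone standing for 1d, and assumed to vary like the other ages, neither arm passed (adjusted p = 0.388 and 0.337).

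Between 14d and 28d the arms moved in opposite directions. miR-148a-3p was 8.04-fold higher at 28d (log2 fold change 3.01 ± 0.33 SE, adjusted p = 0.000345). Of all tested miRNAs 28.1% were called, 15.7% higher and 12.5% lower. miR-148a-5p was 2.76-fold lower (log2 fold change -1.47 ± 0.29 SE, adjusted p = 0.00387). Scaled to the total count the rise of the 3p arm was 3.49-fold (adjusted p = 8.01e-05) and the fall of the 5p arm 5.49-fold (adjusted p = 0.00302). The median of all tested miRNAs was -0.28 with TMM and -1.29 with the total count. Relative to it the log2 change of the 3p arm was 3.29 and 3.10 and that of the 5p arm -1.18 and -1.16. These values hardly depend on the scale by construction, since a change of scaling shifts all miRNAs nearly alike. The fold changes themselves ran in opposite directions on both scales. The call of the 5p arm was lost with no filter on low counts (adjusted p = 0.0572) and with the conserved-name 5p row added (adjusted p = 0.337).

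Between 28d and 2y neither arm passed. miR-148a-3p had a log2 fold change of -0.43 (95% interval -1.11 to 0.25, adjusted p = 0.557). miR-148a-5p had -1.24 (95% interval -1.88 to -0.59, adjusted p = 0.264) and was 1.53-fold lower without 28d replicate 1. In CPM its libraries of both ages lay apart, as did those of miR-26-3p, miR-30d-3p and miR-363-3p. How many of all tested miRNAs do so was not counted. In DESeq2 this fall of the 5p arm passed (log2 fold change -1.11, adjusted p = 0.0200). Of all tested miRNAs 0% were called by edgeR here, while 39 had an unadjusted p under 0.05 and DESeq2 called 18.

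Against the hatchling, the older livers held more 3p and less 5p on the TMM scale. miR-148a-3p was 3.36-fold higher at 28d than at 1d (adjusted p = 0.00191, where 29.6% of all were called and 19.4% were higher) and 2.497-fold higher at 2y than at 1d (adjusted p = 0.00864, where 27.5% were called and 14.5% were higher). These 2 differences depended on the scale. With the total count the log2 fold change was 0.24 at 28d (adjusted p = 0.336) and -0.035 at 2y (adjusted p = 0.900), while the median miRNA stood at -1.15 and -1.26. Relative to the median, the 3p arm was higher by 1.60 and 1.28 on the log2 scale with TMM and by 1.39 and 1.23 with the total count. A change of scaling shifts all miRNAs nearly alike, so this likeness is built in and is no check of the 2 calls. The call at 2y also ended with no filter on low counts (adjusted p = 0.0509) and with 1d replicate 1 alone (adjusted p = 0.0787). miR-148a-5p was 5.22-fold lower at 28d than at 1d (adjusted p = 0.000370, with 10.1% called lower) and 12.3-fold lower at 2y than at 1d (adjusted p = 6.18e-05, with 13% called lower). The fall to 28d was 8.99-fold without 28d replicate 1, and the 2 falls were 12.9-fold and 31.4-fold with the total count.

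From 14d to 2y the 3p arm was 5.97-fold higher (adjusted p = 0.000479, where 29.6% of all were called and 13.3% were higher) and the 5p arm 6.51-fold lower (adjusted p = 0.000323, with 16.2% called lower). With the total count these were 2.89-fold and 13.3-fold. In CPM the order of the 3p arm was therefore 28d, 2y, 1d and 14d, in which 28d and 2y did not differ beyond their spread. By share it was 28d, 1d, 2y and 14d, in which the first 3 overlapped. For the 5p arm the order of the means was 1d, 14d, 28d and 2y on both scales. By share the lowest 28d library was level with the highest 2y one. Tested over the 4 ages together, the adjusted p in edgeR was 0.000204 for the 3p arm and 6.12e-05 for the 5p arm, and 45.2% of all miRNAs passed.

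**Figure D2:**
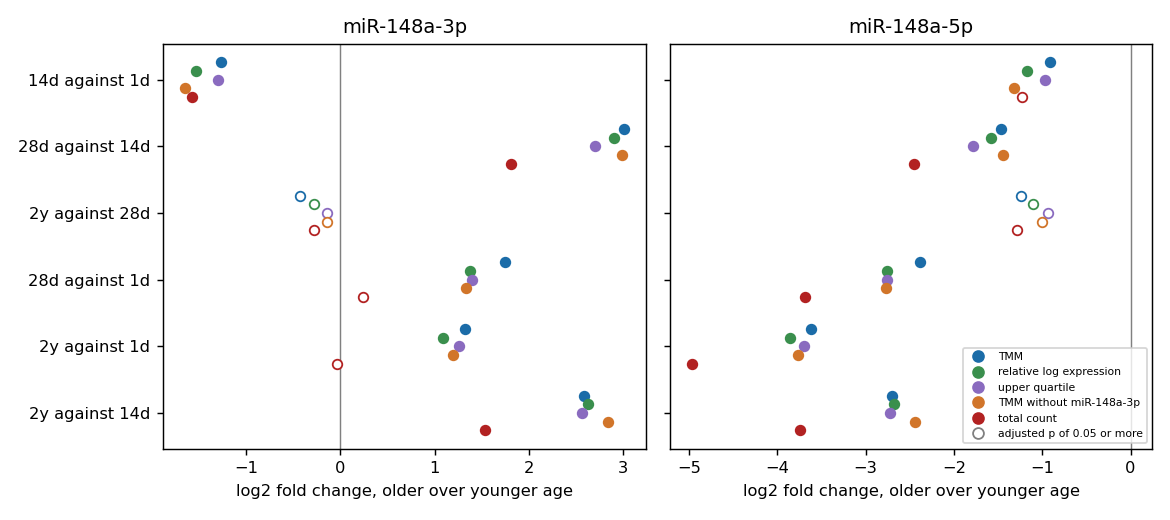
Log2 fold change (older over younger age) of miR-148a-3p and miR-148a-5p in 6 pairs of ages under 5 ways of scaling the libraries; filled circles have an adjusted p under 0.05 in edgeR and open circles do not. The 5p arm lies below 0 in every case, whereas the 3p arm, when 28d or 2y is set against 1d, lies above 0 with 4 scalings and at 0.24 and -0.035 with the total count.

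The ratio of the arms gives the balance of guide and passenger inside each library. At 1d there were 119, 177 and 173 reads of the 3p arm per read of the 5p arm. The 14d libraries had 103, 104 and 179.6. At 28d the ratio was 1238, 4301 and 3329, and at 2y it was 3390.3, 5557 and 6408. The 6 earlier libraries, with ratios of at most 179.6, did not overlap with the 6 later ones, with ratios of at least 1238. How many other hairpins separate in this way was not counted. Within the later ages 28d replicate 1 was the lowest. The 5p arm made up 0.655 ± 0.152% of the reads of both arms at 1d and 0.824 ± 0.234% at 14d, but 0.0447 ± 0.0314% at 28d and 0.0210 ± 0.00742% at 2y. The log2 ratio differed over the 4 ages (exact permutation test over 15400 partitions, adjusted p = 0.00156; limma, adjusted p = 4.24e-06, where 44.7% of the hairpins compared passed).

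To set this beside other hairpins, the log2 ratio of 3p to 5p counts was fitted with limma for the 103 hairpin names (stems) whose arms both passed the filter. For miR-148a the ratio was 21.0-fold higher at 28d than at 14d (log2 change 4.39 ± 0.45 SE, adjusted p = 4.43e-05), where 38.8% of all stems were called and 21.4% had a higher ratio. From 1d to 28d it was 16.9-fold higher (adjusted p = 6.16e-05, with 30.1% of stems called and 17.5% higher). From 1d to 2y it was 32.0-fold higher (adjusted p = 7.89e-06, with 25.2% called and 11.7% higher) and from 14d to 2y 39.7-fold higher (adjusted p = 1.27e-05, with 30.1% called and 17.5% higher). Between 1d and 14d the log2 change was -0.31 (95% interval -1.30 to 0.67, adjusted p = 0.593, with 29.1% called, 13.6% higher and 15.5% lower). Between 28d and 2y it was 0.92 (95% interval -0.06 to 1.91, adjusted p = 0.319), where 0% of stems were called and 13 had an unadjusted p under 0.05. Leaving out any single library changed none of these 6 calls in limma.

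Other hairpins also shifted toward their major arm with age. The major arm was the one with the larger mean raw count over all 12 libraries. Deeper libraries weigh most in that mean, and totals were 3622530 to 4663652 at 1d against 7613374 to 9393075 at 2y. An arm favoured at 2y was thus more readily named major, so part of a shift toward it can be built into the definition. The share of the 103 stems called toward the major arm was 19.4% from 1d to 14d, 25.2% from 14d to 28d, 26.2% from 1d to 28d, 25.2% from 1d to 2y and 22.3% from 14d to 2y. By number, 26 shifted toward the major arm and 14 toward the minor arm from 14d to 28d. From 1d to 2y 26 shifted toward the major arm and 0 toward the minor one. The median change toward the major arm was 0.40 on the log2 scale from 14d to 28d and 0.81 from 1d to 2y, while for miR-148a, whose major arm is 3p, the ratio rose 21.0-fold and 32.0-fold. In both comparisons miR-148a ranked 3 of 103 by size of the shift toward the major arm. Other large changes from 14d to 28d included miR-145, a smooth muscle miRNA, whose ratio of 3p to 5p rose 23.4-fold toward its minor arm (adjusted p = 1.63e-05). miR-33, which lies in an intron of a sterol regulatory gene, moved 13.3-fold toward its major 5p arm (adjusted p = 0.0118), a size that ranged from 7.10-fold without 28d replicate 2 to 27.5-fold without 28d replicate 1. At 14d the 3p arm of miR-33 was the larger one by mean (60.4 against 19.0 CPM). miR-30d moved 7.36-fold toward its minor 3p arm (adjusted p = 5.46e-05). From 1d to 14d these hairpins had moved the opposite way, miR-145 7.65-fold and miR-30d 36.6-fold toward 5p and miR-33 14.8-fold toward 3p. Against 1d, miR-30d at 28d thus stood 4.97-fold toward its major 5p arm and miR-145 3.05-fold toward 3p. The log2 change of miR-33 was 0.15 there (limma adjusted p = 0.970). The ratio of miR-148a did not pass from 1d to 14d.

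**Figure D3:**
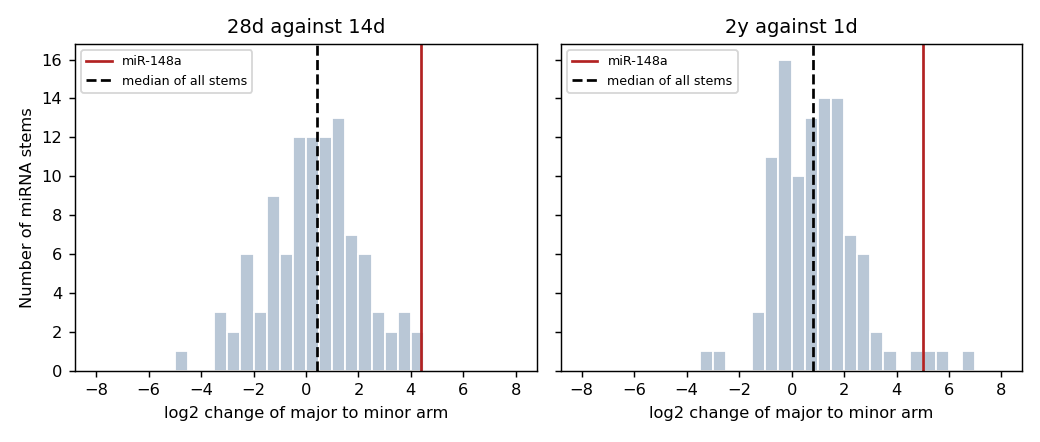
Histograms of the log2 change of the major to minor arm ratio over 103 miRNA stems, for 14d to 28d and for 1d to 2y; the red line marks miR-148a and the dashed line the median of all stems. miR-148a lies at 4.39 on the left and, at its 32.0-fold change, far right of the median on the right; the medians are 0.40 and 0.81.

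The table also lists a second set of names of this family, conserve-cli-miR-148a-1-3p and conserve-cli-miR-148a-1-5p, where the prefix marks names carried over from other species. How reads were divided between these rows and the pigeon-named ones is not given in the sources used here, so the split is uncertain. Both rows were scarce. The 5p row had 86.5 ± 9.89 CPM at 1d and 62.3 ± 5.55 at 14d, against 205.9 ± 40.4 at 28d and 112 ± 26.8 at 2y, and the 3p row 37.0 ± 4.97, 50.0 ± 5.15, 63.5 ± 15.8 and 57.4 ± 12.5 CPM. Of these 2 rows the 5p row was the larger one in every library. In CPM on the TMM scale the 5p row was lowest at 14d and highest at 28d, and was 3.30-fold higher at 28d than at 14d (adjusted p = 0.000889). As a share of counts the order was another one, with means of 0.0149% at 1d and 0.00860% at 14d, against 0.0136% at 28d and 0.00742% at 2y. With the total count the rise from 14d to 28d lost its call (log2 fold change 0.67, adjusted p = 0.138), and the log2 fold change turned from 1.25 to -0.12 for 28d against 1d and from 0.84 to -0.21 for 2y against 14d. The ratio of 3p to 5p of this second name was 2.62-fold lower at 28d than at 14d (adjusted p = 0.00295), the opposite direction to that of miR-148a. Whether these rows come from a hairpin of their own was not tested, so the ratio need not be one between arms of the same hairpin.

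Because of this second name the 5p counts were also added up, a choice made after the data were seen. The conserved name held 11.5 ± 0.937% of the summed 5p reads at 1d and 15.3 ± 2.92% at 14d, but 61.7 ± 7.39% at 28d and 67.5 ± 4.88% at 2y. It thus outnumbered miR-148a-5p in all 6 later libraries and in none of the 6 earlier ones. With the rows added the fall of the 5p arm from 14d to 28d no longer passed (1.24-fold, adjusted p = 0.337). The falls from 1d to 28d (2.25-fold, adjusted p = 0.00433), from 1d to 2y (4.52-fold, adjusted p = 0.000139) and from 14d to 2y (2.51-fold, adjusted p = 0.00316) still did. The summed ratio of 3p to 5p was 138 ± 27.4, 108 ± 32.8, 1106 ± 628 and 1628 ± 378 over the 4 ages. It rose 9.37-fold from 14d to 28d (adjusted p = 0.000115), 7.22-fold from 1d to 28d (adjusted p = 0.000263), 11.7-fold from 1d to 2y (adjusted p = 5.73e-05) and 15.2-fold from 14d to 2y (adjusted p = 4.59e-05). The higher ratio of 3p to 5p at the later ages thus remained in the summed counts, at a smaller size. The family name miR-152 occurred in 1 row, which had no count outside 14d and was not tested.

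**Figure D4:**
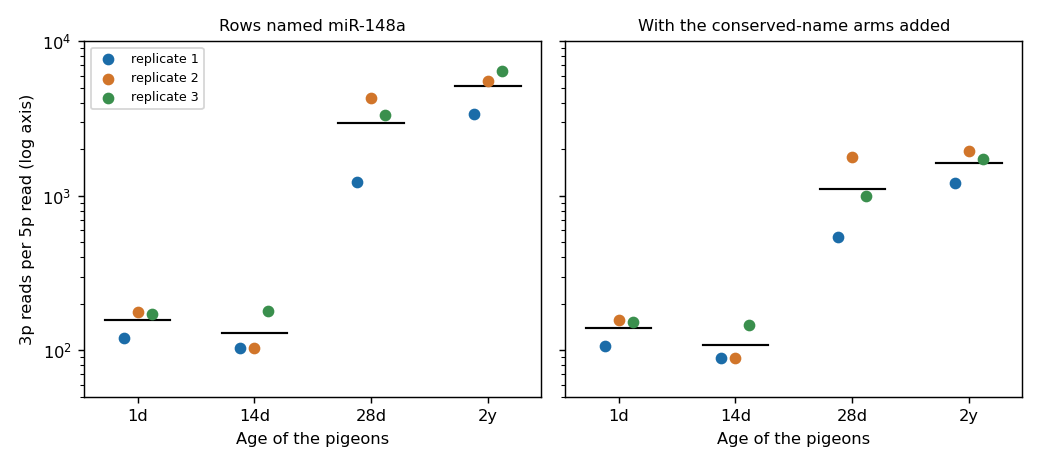
Reads of the 3p arm per read of the 5p arm in each library on a log axis, for the rows named miR-148a (left) and after adding the conserved-name arms (right); points are birds and black lines means of 3. On the left the earlier ages reach at most 179.6 and the later ones lie at 1238 or above; on the right the means are 138 and 108 against 1106 and 1628.

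The hepatocyte-enriched list held 7 rows, of which 6 were tested: miR-148a-3p, miR-148a-5p, the 2 conserved-name rows, miR-194-5p and miR-215-5p, the last 2 known from liver and gut epithelium of mammals. Only these last 2 are not miR-148a names. The list was drawn up from miR-148a, miR-194 and miR-215 alone, so other miRNAs known from hepatocytes were left out. The tallies and medians of the list thus largely restate miR-148a and are no separate look at hepatocyte miRNAs. From 1d to 28d 5 of 6 were called higher and 1, miR-148a-5p, lower, with a median log2 fold change of 1.4997 against 0.15 over all tested miRNAs, of which 19.4% were called higher and 10.1% lower. With the total count 0 of the 6 were higher and 1 was lower, where 9 of all 345 were called higher and 89 lower. One of the 5, the conserved-name 3p row, had an adjusted p of 0.0499 and did not pass under any alternative, and the conserved-name 5p row did not pass without 28d replicate 1 (adjusted p = 0.0995). From 14d to 28d 3 of 6 were higher and 1 lower (median 2.06 against -0.28), where 15.7% of all were called higher and 12.5% lower. With the total count 1 was higher and 2 were lower, where 18 of all 345 were higher and 98 lower. From 1d to 14d 0 were higher and 2 lower (median -0.02 against 0.49), where 16.8% of all were called higher and 14.2% lower. With the total count 0 were higher and 1 lower, where 30 of all 345 were higher and 48 lower. miR-215-5p was at 28.7 ± 9.33 CPM at 1d and 49.2 ± 1.88 at 14d, against 448 ± 76.0 at 28d and 1426 ± 1693 at 2y, where single birds ranged from 82.1 to 3327 CPM. Unlike miR-148a-3p it had no low at 14d. The 9.12-fold rise of miR-215-5p from 14d to 28d (adjusted p = 0.0300) lost its call without any single 14d or 28d library (adjusted p 0.0563 to 0.119). It was also lost with the total count and with no filter on low counts. miR-215-5p was 15.6-fold higher at 28d than at 1d (adjusted p = 0.0106). Leaving out 28d replicate 1 made it 9.32-fold (adjusted p = 0.0507). The total count (adjusted p = 0.0689) and no filter on low counts also ended this call, which held in 20 of 24 alternatives. At 2y miR-215-5p was 29.0-fold higher than at 14d (edgeR adjusted p = 0.00646), a call that held in 23 of 23 alternatives. Against 1d it was 49.7-fold higher at 2y (adjusted p = 0.00254), which held in 23 of 24. Both rest on 2y birds of the wide range given above. miR-194-5p was at 2.84 ± 0.813, 18.0 ± 13.9, 94.9 ± 78.1 and 77.8 ± 94.8 CPM. Its rise from 1d to 28d was 33.1-fold (adjusted p = 0.0136), and this call ended without any single 1d library or 28d replicate 1 (20.7-fold), while without 28d replicate 3 it was 19.4-fold. The total count, no filter on low counts and limma voom also ended this call.

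Whole liver holds other cells, and in such samples fewer cells of a type and less RNA per cell cannot be told apart. The leukocyte list (13 rows of miR-142, miR-146, miR-155 and miR-21) held 6.23 to 9.19, 2.55 to 3.56, 3.99 to 11.5 and 4.17 to 5.02% of counts in order of age, with conserve-cli-miR-142-3p at 0 at 2y. The mesenchymal list (10 rows, from the miR-143 with miR-145 and the miR-199 with miR-214 hairpins) held 7.79 to 9.47, 3.85 to 5.52, 7.58 to 13.2 and 12.1 to 19.1%, with the conserved-name rows of miR-143 and miR-145 at 0 at several ages. Both were lowest at 14d, as miR-148a-3p was. In the leukocyte list miR-21-5p was itself lowest at 14d, with means of 20593, 8527, 45265 and 26119 CPM in order of age. How much of that list's share it made up was not computed, and whether it came from leukocytes was not tested. Most of the mesenchymal share was miR-143-3p alone, with means of 6.83 of 8.89% at 1d and 2.73 of 4.62% at 14d. Other rows of that list differed by mean. miR-199-3p was lowest at 14d (7435 CPM, against 9582 at 1d), whereas miR-145-5p was highest there (2022 CPM, against 395 at 1d). From 14d to 28d 7 of 13 tested leukocyte rows were higher and 0 lower (median log2 fold change 1.21), and 4 of 9 mesenchymal rows were higher and 1 lower (median 0.39). Over all tested miRNAs 15.7% were higher and 12.5% lower, with a median of -0.28. Scaled to the total count these lists had 6 higher and 2 lower, and 2 higher and 2 lower. That scaling called 18 of all 345 miRNAs higher and 98 lower. From 1d to 14d 2 leukocyte rows were higher and 4 lower, and 4 mesenchymal rows were higher and 0 lower, where 16.8% of all miRNAs were higher and 14.2% lower. The leukocyte tally was the same with the total count, and the mesenchymal one was 1 higher and 1 lower, where 30 of all 345 were higher and 48 lower. The endothelial list (both arms of miR-126, known from vessel walls) held 2.98 to 5.09, 2.12 to 2.69, 1.92 to 4.09 and 2.11 to 2.27%, and both rows were higher at 28d than at 14d with TMM but neither passed with the total count. The list of biliary and other epithelial miRNAs ran the other way. It held 19 rows of miR-200a, miR-200b, miR-141, miR-429, miR-205a, miR-205b, miR-183, miR-96 and miR-182, not all of them bile duct miRNAs. Its share was 0.116 to 0.133, 0.164 to 0.433, 0.0367 to 0.0989 and 0.0426 to 0.0451% in the same order, highest at 14d. In that order 5, 5, 5 and 4 of its rows were at 0. From 14d to 28d 0 of its 10 tested rows were higher and 5 lower (median -1.82, against the same -0.28, 15.7% and 12.5% over all miRNAs). With the total count 0 were higher and 8 lower, against the same 18 and 98 of all 345. The muscle, neural and pancreas lists held at most 0.540, 0.0900 and 0.0746% in any library. Their part in the course of miR-148a was not tested.

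The miRNAs closest to each arm were sought over the 12 libraries by the root mean square difference of log2 CPM, each miRNA centred on its own mean, among 128 others with at least 100 CPM at some age. This is a description, since all share the same libraries and scaling and the miRNAs were picked for their likeness. Their own changes between ages are thus no separate support. Closest to miR-148a-3p, whose own root mean square deviation was 1.199, were miR-101-3p (difference 0.41), miR-143-3p (0.48), miR-199-3p (0.54), miR-21-5p (0.55) and miR-190-5p (0.61). miR-101-3p was at 4238 ± 526 CPM at 1d and 1688 ± 309 at 14d, against 12387 ± 2514 at 28d and 14441 ± 1200.4 at 2y. It was highest at 2y, where miR-148a-3p was highest at 28d. It fell 2.51-fold from 1d to 14d and rose 7.34-fold from 14d to 28d, a course it was picked for. Among these 5, miR-143-3p and miR-199-3p belong to the mesenchymal list and miR-21-5p to the leukocyte list.

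Closest to the 5p arm were miR-26-3p (0.60), miR-15c-5p (0.80), miR-20b-5p (0.86), miR-363-3p (0.95) and miR-106-5p (0.97), against an own deviation of 1.42 for the 5p arm. The difference between the 5p arm and its own 3p arm was 2.42. The 5 closest lie nearer than any other by how they were picked. How many of the 128 others lay nearer than the 3p arm was not counted. miR-26-3p, the minor arm of the abundant miR-26, was at 235.5 ± 29.4, 134 ± 36.0, 70.4 ± 5.85 and 40.6 ± 5.01 CPM and so stepped down at each age as miR-148a-5p did. From 1d to 2y it was 5.80-fold lower, against 12.3-fold for miR-148a-5p. The miR-20b, miR-363 and miR-106 rows belong to a cluster known from dividing cells, and they had most of their fall between 1d and 14d. miR-20b-5p, for example, was at 630.5 ± 74.5, 131 ± 22.2, 93.5 ± 26.6 and 83.7 ± 29.4 CPM.

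**Figure D5:**
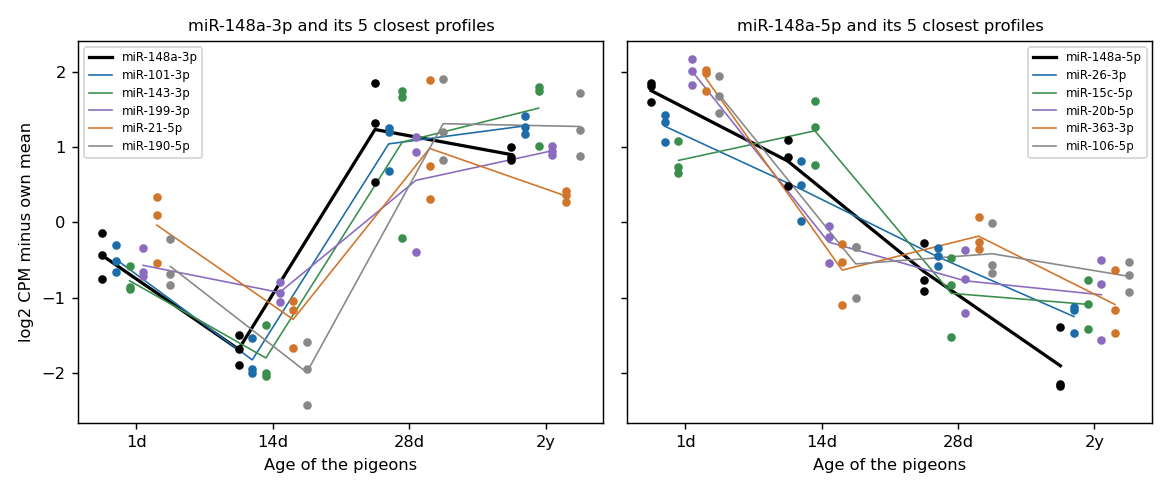
Log2 CPM of each miRNA minus its own mean over 12 libraries, by age, for miR-148a-3p (left, black) and miR-148a-5p (right, black) with the 5 miRNAs closest to each by root mean square difference; points are birds and lines join age means. The left profiles are lowest at 14d and highest at 28d or 2y, and the right profiles end lowest at 2y.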

How the data were processed

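Liver RNA of 3 pigeons per age was made into 1 small RNA library each (10 to 45 nt, 50 bp single-end reads), per the labels' protocols. The deposited table gives raw counts for each mature miRNA name. The submitters' processing notes name Bowtie without a version; the genome build and how reads were shared between similar miRNAs were not given in the sources used here. Titles gave the groups.

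Counts were tested with edgeR 4.0.16 in R 4.3.3 (filterByExpr, TMM, robust quasi-likelihood, one mean per age, all 12 libraries; common biological coefficient of variation 0.807). Arm ratios, log2((3p + 0.5)/(5p + 0.5)), were fitted over 103 stems with limma 3.58.1 (trend, robust). The threshold was an adjusted p under 0.05. DESeq2 1.42.0, limma voom, other scalings and filters, a replicate block and each library left out were alternatives. Libraries of 1 age differed beyond sampling noise (chi-square per degree of freedom at least 406). Scripts were also run on simulated data set to vary less than these data, so that run is no check of the calls here. A count of 0 allows up to 3 counts.

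The members and lists were chosen with earlier results of these data known. Named miRNAs are both arms, the tested family and hepatocyte-enriched rows, the 5 miRNAs closest to each arm, the 3 other stems with the largest arm change from 14d to 28d (both arms at 100 CPM or more at either age), and the 5 most abundant miRNAs, of which part is printed.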

Additional observations from a re-analysis of the deposited data

How the results depend on the processing

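Over 439 alternative values of 21 results on miR-148a, 421 were judged to match the reported result. Most were judged by direction and side of the threshold, and the exact tests by that side alone. For each result 12 of the values left out a single library, in pairs of ages often one of an age not compared. A result that was not called matched by staying uncalled in the same direction. The tally thus includes values that could change little and is no measure of robustness. Differences of the arms' edgeR fold changes carry no p-value. They counted as matching when they differed from the reported log2 ratio change by less than the within-age SD of the log2 ratio. The cause of the other changes was not tested. For 14d against 1d, leaving out single libraries gave log2 fold changes of -1.71 to -1.15 for the 3p arm and -1.37 to -0.79 for the 5p arm. With 1d replicate 1 only they were -0.84 and -0.89, neither passing, the arm ratio turned from -0.31 to 0.058, and 2y against 1d for the 3p arm was 1.76 and did not pass. With the total count alone the 5p arm at 14d against 1d was -1.23 and did not pass, and the 3p arm was 0.24 at 28d against 1d and -0.035 at 2y against 1d. That scaling also turned the conserved-name 5p row to -0.12 (28d against 1d) and -0.21 (2y against 14d), and the conserved-name 3p row to -0.69 (28d against 1d). With no filter the 3p arm at 2y against 1d was 1.00 and the 5p arm at 28d against 14d -1.34, neither passing. Adding the conserved-name arms, chosen after seeing the data, gave -0.32 for the latter. DESeq2 called the 5p arm at 2y against 28d (-1.11).

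Same-numbered libraries of different ages correlated over 0.1 in 6 of 18 pairs (-0.10 to 0.37). Differently numbered libraries were not compared, so these values cannot tell whether the numbers pair birds. The main fits used no pairing. The replicate block changed no call of miR-148a, with 3.01 becoming 2.94 for the 3p arm and -1.47 staying -1.47 for the 5p arm at 28d against 14d, and calls over all miRNAs at 14d against 1d going from 107 to 70. Over all alternatives those calls ranged from 22 to 141 for 14d against 1d (107 as reported), 56 to 126 for 28d against 14d (97), 0 to 18 for 2y against 28d (0), 35 to 128 for 28d against 1d (102), 30 to 131 for 2y against 1d (95) and 51 to 138 for 2y against 14d (102). Depth limits the scarce rows, with as few as 165 counts in a library for miR-148a-5p and 114 for the conserved-name 3p row.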
